A study of Mus musculus with 2 samples.

Results

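Xcl1-high NK cells are natural killer cells from mouse melanomas that carried at least 2 UMIs (unique molecular identifiers, counted transcripts) of the chemokine gene Xcl1, none of Klrg1, and none of the cycle genes Mki67 and Top2a. Members were thus chosen by their UMI counts of these genes. The rule first took barcodes of 500 or more UMIs with no more than 10% from mitochondrial genes, then NK cells, with 1 or more UMIs of Ncr1 or Klrb1c, none of Cd3e, Cd3d, Cd8b1 and Cd79a, and at most 2 of Lyz2. It found 1172 cells among 17334 kept barcodes, 686 from control and 486 from knockdown. The control library went from 9872 kept barcodes to 2740 NK cells and 2311 non-cycling NK cells, and the knockdown library from 7462 to 1846 and 1463. The study sorted live CD45+ cells from subcutaneous B16.SIY tumours that had grown in B6 mice for 14 days. B16.SIY is a derivative of the B16 melanoma with a model antigen. Tumour cells had been stably transduced with lentivirus for a control shRNA (control group) or a Decr2 shRNA (knockdown group) and kept in puromycin at 1.5 μg/mL for 3 days. The shRNA was in the injected tumour cells and the sorted cells came from the host. Each group was 1 library, and neither the number of mice behind it nor their age was given in the sources used here.

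XCL1 binds XCR1, a receptor of the conventional dendritic cells that cross-present tumour antigen to CD8 T cells, and NK cells are a known source of it. Mouse NK cells mature from a CD27+ stage that keeps TCF-1, the product of Tcf7, towards a stage with CD11b and KLRG1, with stores of granzymes and perforin and with receptors for leaving tissue. Decr2 encodes a peroxisomal reductase that takes part in the breakdown of polyunsaturated fatty acids.

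The 11335 deposited barcodes of the control library held 47538493 UMIs, and the 9542 of the knockdown library 55417986. Kept barcodes had a median of 3002 UMIs in control and 4573.5 in knockdown, and Xcl1-high cells had 2629 and 3850.5, with 1175 and 1574 genes per cell. Their summed UMIs were 1953170 and 2064430. The libraries shared 34 barcode sequences. None was an Xcl1-high cell in both, but 4 control members and 2 knockdown members had a barcode that also occurred in the other library.

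Levels are given as CPM, the UMIs of a gene per 1000000 UMIs summed across the cells of a gate in a library. Every interval is a 95% interval that covers counting error only. The Xcl1-high cells were set beside the other non-cycling NK cells of the same libraries. Klrg1-only cells had at least 1 Klrg1 UMI and fewer than 2 of Xcl1 (250 in control, 143 in knockdown). Double-low cells had no Klrg1 UMI and fewer than 2 of Xcl1 (1320 and 781). Cells with Klrg1 and at least 2 Xcl1 UMIs numbered 55 and 53. Since 0 UMIs of a gene at this depth does not show that a cell lacks it, the gates are ranges and not cell types.

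By construction, Xcl1 was at 1872 CPM (1812 to 1934) in control and 1492 CPM in knockdown Xcl1-high cells. It was at 107 and 75.4 CPM in double-low cells and at 48.4 and 37.5 CPM in Klrg1-only cells. Members had a median of 4 Xcl1 UMIs in either library, with maxima of 67 and 54. The threshold fell in a dense part of the range, since 202 control and 126 knockdown members held exactly 2 Xcl1 UMIs, and 339 and 198 otherwise equal cells held 1.

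The markers given with the cells besides Xcl1 were Cited4, which encodes a CBP/p300-binding co-activator, Arl4d, a small GTPase of the ARF family, and Eomes, a T-box factor of NK cells. Cited4 was at 113 CPM in control and 140 CPM in knockdown Xcl1-high cells, against 72.1 and 105 CPM in double-low cells and 33.3 and 49.4 CPM in Klrg1-only cells. Arl4d was at 60.4 CPM in control Xcl1-high cells, beside 60.8 CPM in double-low and 62.1 CPM in Klrg1-only cells of that library. In the knockdown library Arl4d was at 102, 81.9 and 61.2 CPM in the same order. Eomes was at 230 and 291 CPM in Xcl1-high cells, below the 283 and 333 CPM of double-low cells in each library. So Cited4 was highest in Xcl1-high cells of both libraries, Arl4d in knockdown only, and Eomes in neither. These values describe the cells, with no test, because the genes were given with them.

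All 8 genes of an NK list outside the rule were detected in these cells, as in the other gates. They summed to 14126 and 13987 CPM in Xcl1-high cells, below the 20481 and 19856 CPM of double-low and the 25416 and 28343 CPM of Klrg1-only cells. Gzma is among the 8 and holds a large part of each sum. The sums therefore largely follow its levels, which are given with the granule genes. By edgeR, 4 of the 8 were lower than in Klrg1-only cells, 2 lower than in double-low cells and none higher. The 8 genes include Klrd1 (789 and 817 CPM), the CD94 chain of inhibitory receptors, and Klrk1 (816 and 797 CPM), the activating receptor NKG2D. Klrk1 was called in neither comparison. T cell markers outside the rule were also present: 10 of 10 were detected and summed to 1157 CPM in control and 1092 CPM in knockdown Xcl1-high cells. The same sum was 1016 and 1000 CPM in double-low cells, and 937 and 855 CPM in Klrg1-only cells. By edgeR, 2 of 8 tested T cell markers were higher and 0 lower in each comparison. Over all tested genes, 3.37% were higher and 2.91% lower against Klrg1-only cells, and 2.30% higher and 1.50% lower against double-low cells. Requiring no Cd3g and no Trac UMI as well left 593 and 369 Xcl1-high cells. Of the dendritic cell list, 8 of 10 genes were detected, at 309 and 146 CPM, with Fscn1 at 0 in both libraries. Xcr1 itself had 0 UMIs in control and 2 in knockdown Xcl1-high cells. Monocyte and macrophage markers summed to 130 and 63.9 CPM, and melanoma markers to 267 and 221 CPM. Of 5 markers of type 2 innate lymphoid cells, Il5, Il13 and Il17rb were at 0, and Il1rl1 and Areg together had 5 and 3 UMIs.

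Xcl1-high cells were 29.7% (27.8 to 31.6) of non-cycling NK cells in control and 33.2% (30.8 to 35.7) in knockdown, a difference of 3.54 points (0.503 to 6.60). The rule reads raw UMIs, and the knockdown library was deeper. With every cell thinned to 1500 UMIs before the rule was read, the shares were 22.0% in each library, and the difference was 0.0272 points (−2.71 to 2.81). This left out 230 control and 74 knockdown cells with fewer UMIs. Cells that failed the NK or cycle part of the rule on all UMIs could enter. Non-cycling NK cells of the knockdown library numbered 1482 there, against 1463 on all UMIs. Thinned to 1000 and to 2500 UMIs, the difference was −1.63 points (−4.04 to 0.830) and −1.95 points (−5.71 to 1.79). With only the Xcl1 and Klrg1 gate read on 1500 thinned UMIs, and the NK and cycle genes on all, the shares were 21.9% and 19.9%. That difference was −1.97 points (−4.69 to 0.812). Each interval at equal depth included 0. At unequal depth the difference was above 0 under every other filter tried, but its interval included 0 with at least 1 Xcl1 UMI (−0.857 to 5.66), with at least 1500 UMIs (−0.375 to 6.03), without Cd3g and Trac UMIs (−1.06 to 5.66) and with at least 2 UMIs of Ncr1 and Klrb1c (−0.299 to 6.65). With 1 library per group there is no test of the difference.

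**Figure D1:**
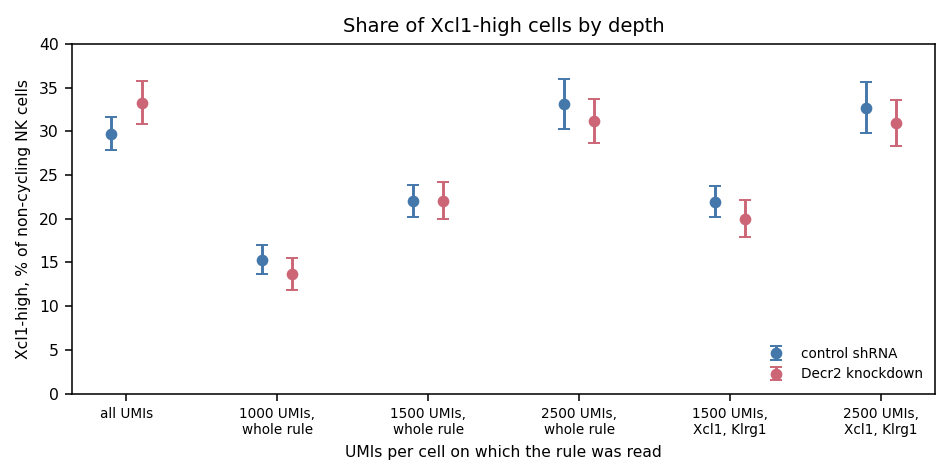
Xcl1-high cells as a percentage of non-cycling NK cells (y axis) in the control and knockdown libraries, for the rule read on all UMIs or on cells thinned to the number of UMIs on the x axis. Points are shares and bars exact 95% binomial intervals. The knockdown share is higher with all UMIs (33.2% against 29.7%) and equal with the whole rule read at 1500 UMIs (22.0%). It is lower with only the Xcl1 and Klrg1 gate read at 1500 UMIs (19.9% against 21.9%).

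Of all Xcl1 UMIs in kept barcodes, 31.0% in control and 26.2% in knockdown were in these cells, which were 6.95% and 6.51% of kept barcodes. The other NK cells held 13.4% and 17.8%, and a gate of CD8 T cells 11.6% and 10.9%. Barcodes in none of the named gates held 43.6% and 44.7%, so most Xcl1 transcript lay outside the Xcl1-high NK gate in both libraries. At least 2 Xcl1 UMIs were found in 0.413% of 242 control and 0.629% of 159 knockdown cells of a B cell gate, where Xcl1 should be absent. Median depth in that gate was 1607.5 and 2561 UMIs.

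The comparison with Klrg1-only cells asks how these cells differ from the mature end of the same population. Xcl1-high cells had lower levels of the genes that mark terminal NK maturation and the killing machinery. They had higher levels of Tcf7, of the lymphoid cytokine gene Ltb, and of the receptor genes Gpr183, Il7r and Cxcr3. Outside the gate and marker genes, 509 of 8109 genes tested (6.28%) were called at an adjusted p below 0.05 by edgeR's quasi-likelihood test, 273 higher (3.37%) and 236 lower (2.91%). At an unadjusted p below 0.05 there were 1256. The fit used 4 sums, the 2 gates in each library with the library as a block, and had 1 residual degree of freedom. The libraries are also the treatments, so a gate difference that depends on treatment counts there as spread. DESeq2 with its default independent filtering gave an adjusted p to 716 of the genes and called 111, 64 higher and 47 lower. Without that filtering it called 70 of all 8109, 37 higher and 33 lower. DESeq2 calls of lists and single genes below are those without the filtering, over all genes.

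Against double-low cells, which share the absence of Klrg1 UMIs, 350 of 9225 genes (3.79%) were called by edgeR, 212 higher (2.30%) and 138 lower (1.50%), and 1302 had an unadjusted p below 0.05. DESeq2 called 87 higher and 16 lower among 637 genes with an adjusted p, and 44 higher and 10 lower without the filtering. Scaling by library totals alone gave 231 higher and 288 lower, so the balance of directions in this comparison depends on the scaling: 60.6% of calls were higher in the reported fit and 44.5% there. The median log2 difference over all tested genes was 0.0025 against Klrg1-only cells and 0.0019 against double-low cells. Both comparisons use the same Xcl1-high sums and are not independent.

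Of 14 tested genes of terminal maturation, 13 were lower in Xcl1-high than in Klrg1-only cells and none was higher, with a median log2 difference of −1.12. Against double-low cells 10 of 14 were lower, with a median of −0.46. DESeq2 called 10 and 4 of them lower. The single member not called in the comparison with Klrg1-only cells was S1pr1, a sphingosine 1-phosphate receptor (log2 difference −0.25 ± 0.35 SE). Gzma, which is also counted in this list, is described with the granule genes.

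Cma1, which encodes a mast cell chymase, was at 36.4 and 34.9 CPM in control and knockdown Xcl1-high cells, at 92.6 and 98.6 CPM in double-low cells and at 227 and 259 CPM in Klrg1-only cells. The 3 gates did not overlap across libraries, and the log2 difference from Klrg1-only cells was −2.76 ± 0.157 (SE, edgeR adjusted p = 6.47e-65). S1pr5, the sphingosine 1-phosphate receptor that NK cells use to leave lymphoid tissue, was at 14.8 and 15.5 CPM, against 30.2 and 31.6 CPM in double-low and 92.3 and 86.9 CPM in Klrg1-only cells. Its log2 difference was −2.56 ± 0.244 from Klrg1-only cells (edgeR adjusted p = 5.92e-23) and −0.984 ± 0.205 from double-low cells (edgeR adjusted p = 0.00439). Zeb2, a repressor needed for terminal NK maturation, was at 146 and 133 CPM, against 328 and 377 CPM in Klrg1-only cells (log2 difference −1.33). Itgam, the CD11b integrin chain, was at 72.7 and 65.4 CPM against 194 and 176 CPM (−1.42).

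Cx3cr1, the fractalkine receptor of mature NK cells, was lower than in Klrg1-only cells (log2 difference −2.20 ± 0.309, edgeR adjusted p = 1.84e-10). However, 55.6% of its UMIs in Xcl1-high cells were in 1 cell. It was at 17.9 CPM in control and 4.84 CPM in knockdown Xcl1-high cells, and it was not called against double-low cells. Irf8 and Prdm1, both transcription factors of lymphoid and myeloid cells, were lower in both comparisons. Tbx21, which encodes T-bet, was lower than in Klrg1-only cells (−0.566 ± 0.147, edgeR adjusted p = 0.00339) and not called against double-low cells, where its log2 difference was −0.103 ± 0.0989.

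Granule and death-ligand genes were lower against Klrg1-only cells in 9 of 14 tested members and higher in none (median −0.46). Against double-low cells 6 of 16 were lower and 2 higher. DESeq2 called 4 and 3 lower and none higher. Gzma, the granzyme with the most UMIs in every gate, was at 5878 and 5867 CPM in Xcl1-high cells, 11404 and 11254 CPM in double-low cells and 15814 and 18181 CPM in Klrg1-only cells. Gzmb, which activates caspases in target cells, was at 762 and 691 CPM, against 1497 and 1463 CPM in double-low cells and 2111 and 2589 CPM in Klrg1-only cells. For both genes the libraries were close within the Xcl1-high gate and the gates were apart. The log2 differences from Klrg1-only cells were −1.53 ± 0.0607 for Gzma and −1.68 ± 0.0688 for Gzmb (edgeR adjusted p = 1.85e-131 and 2.05e-124), and those from double-low cells were −0.907 and −0.987.

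Prf1, the pore-forming perforin, was at 648 and 599 CPM in Xcl1-high cells and at 1504 and 1610 CPM in Klrg1-only cells (log2 difference −1.32). Fasl, the death ligand of Fas, was at 127 and 136 CPM against 218 and 180 CPM (−0.609). The granule proteins Srgn and Ctsw were not called in either comparison. The 2 members that were higher than in double-low cells were Tnfsf10, the TRAIL gene (21.5 and 23.7 CPM against 10.4 and 14.1), and Gzmc. Gzmc was at 250 CPM in control and 121 CPM in knockdown Xcl1-high cells, against 35.9 and 70.8 CPM in double-low cells and 549 and 107 CPM in Klrg1-only cells. A cell held 10.9% of its UMIs in Xcl1-high cells. Reads of granzymes of similar sequence may be divided among them by the counting.

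Early NK and memory-like genes went the other way. Of 14 tested members, 9 were higher than in Klrg1-only cells and none lower (median 1.08), and of 15 tested against double-low cells 8 were higher and 1 lower (median 0.37). DESeq2 called 5 and 4 of them higher, among them Tcf7, Il7r, Ltb and Emb in both comparisons. Ltb, the lymphotoxin beta chain that directs lymphoid tissue organisation, was at 455 CPM (425 to 486) in control and 464 CPM (435 to 494) in knockdown Xcl1-high cells. It was at 202 and 185 CPM in double-low cells and at 78.7 and 79.0 CPM in Klrg1-only cells. The gates did not overlap, and the log2 difference was 2.54 ± 0.136 from Klrg1-only cells and 1.28 ± 0.0681 from double-low cells (edgeR adjusted p = 6.79e-73 and 5.84e-13).

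Tcf7, the factor of early and memory-like lymphocytes, was at 143 and 179 CPM in Xcl1-high cells, 81.9 and 111 CPM in double-low cells and 49.9 and 43.5 CPM in Klrg1-only cells. Its log2 difference was 1.76 ± 0.183 from Klrg1-only cells (edgeR adjusted p = 3.74e-19) and 0.788 ± 0.0917 from double-low cells (edgeR adjusted p = 2.05e-06). Il7r, the interleukin-7 receptor chain, was at 37.4 and 79.9 CPM, against 17.3 and 25.5 CPM in double-low cells and 6.05 and 11.9 CPM in Klrg1-only cells. Its log2 difference from Klrg1-only cells was 2.69 ± 0.358, on 4 and 6 UMIs in the latter. Emb, an immunoglobulin-family partner of lactate transporters, was at 533 and 608 CPM against 154 and 140 CPM in Klrg1-only cells (log2 difference 1.94).

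The TNF receptor gene Cd27 was higher than in Klrg1-only cells (124 and 112 CPM against 75.7 and 39.5 CPM, log2 difference 1.00). It was not called against double-low cells, at 108 and 91.0 CPM. Lef1, a relative of Tcf7, was called in neither comparison. Cd28, the T cell co-stimulatory receptor, was at 132 and 130 CPM in Xcl1-high cells and at 40.9 and 21.7 CPM in Klrg1-only cells (log2 difference 2.02). Because T cells also express Tcf7, Il7r, Ltb and Cd28, the comparison was repeated without cells that held Cd3g or Trac UMIs. There the log2 differences from Klrg1-only cells were 1.67 for Tcf7, 3.69 for Il7r, 2.58 for Ltb and 1.87 for Cd28. Each remained called by edgeR. The Il7r value rests on few UMIs in Klrg1-only cells, as it did before this filter. At this depth a cell without Cd3g or Trac UMIs can still be a T cell, so the filter cannot exclude T cells. Their part in these differences was not tested. The lower member against double-low cells was Ccr7, a lymph node homing receptor, with 10 and 40 UMIs in Xcl1-high cells and 16 and 173 in double-low cells. Its control levels were 5.12 and 5.04 CPM, so the difference lay in the knockdown library.

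**Figure D2:**
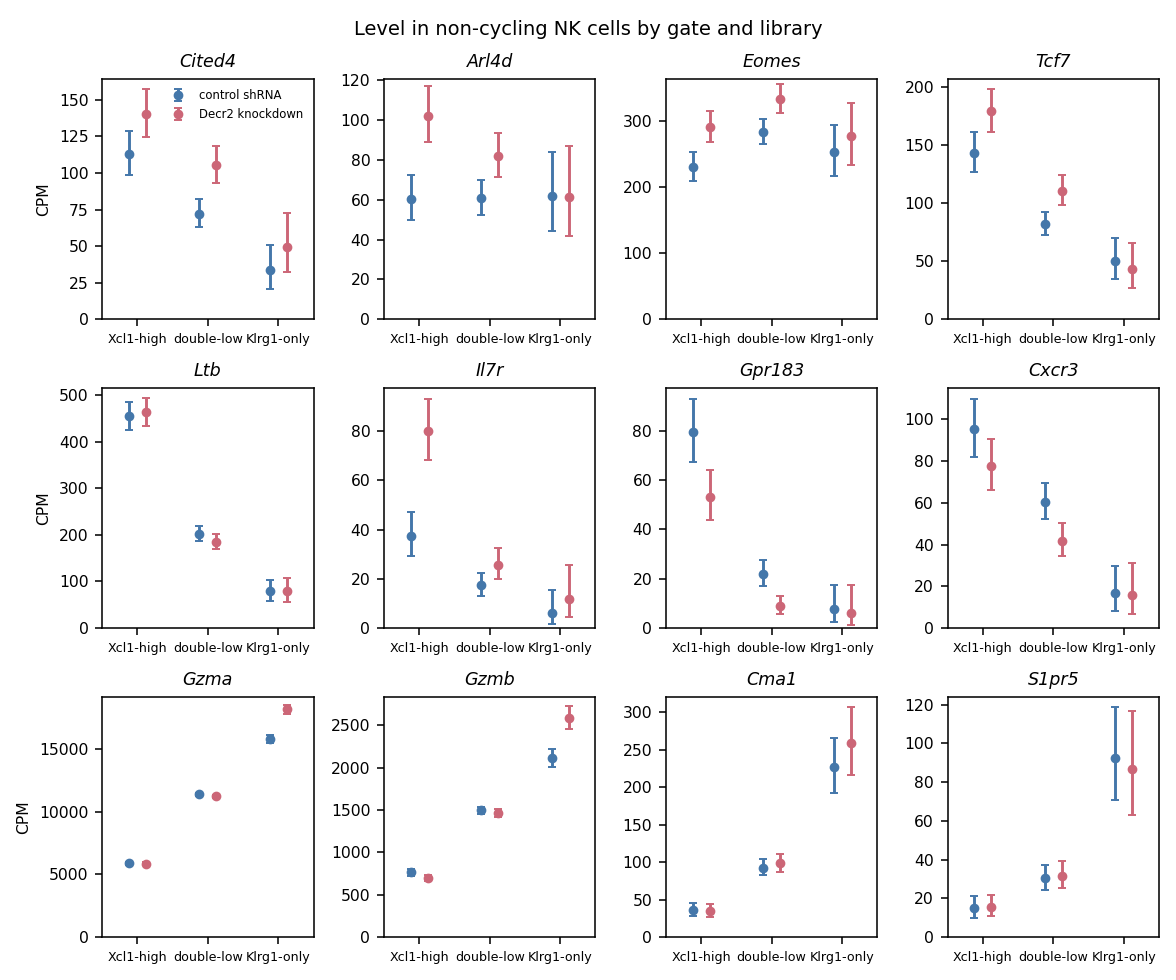
Level in CPM (y axes, from 0) of 12 genes in Xcl1-high, double-low and Klrg1-only NK cells (x axis) of the control and knockdown libraries, with exact 95% Poisson intervals. Tcf7, Ltb, Il7r, Gpr183 and Cxcr3 are highest in Xcl1-high cells of both libraries (Ltb 455 and 464 CPM), Gzma, Gzmb, Cma1 and S1pr5 are lowest there, and Eomes is below the double-low level (230 against 283 CPM in control).

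The leading gene of both comparisons was Gpr183, which encodes EBI2, a receptor for oxysterols that guides lymphocytes and dendritic cells. It had 155 and 110 UMIs (79.4 and 53.3 CPM) in Xcl1-high cells, 69 and 23 UMIs (21.7 and 8.76 CPM) in double-low cells and 5 and 3 UMIs (7.57 and 5.93 CPM) in Klrg1-only cells. Its level was 3.65 times (2.73 to 4.92) that of double-low cells in control and 6.08 times (3.86 to 9.99) in knockdown. Against Klrg1-only cells the ratios were 10.5 (4.40 to 32.7) and 8.99 (3.00 to 44.3). The log2 difference was 2.15 ± 0.174 from double-low cells (edgeR adjusted p = 2.75e-09).

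Genes of type 1 innate lymphoid cells (ILC1) and tissue residency were higher in 7 of 12 tested members against Klrg1-only cells (median 1.58) and in 10 of 12 against double-low cells (median 1.11), and lower in none. DESeq2 called 1 of them in each comparison, Cxcr3 against Klrg1-only and Tmem176b against double-low cells. Cxcr3, a receptor for interferon-induced chemokines, was at 95.2 and 77.5 CPM in Xcl1-high cells, 60.5 and 41.9 CPM in double-low cells and 16.6 and 15.8 CPM in Klrg1-only cells. Rora, a nuclear receptor of innate lymphoid cells, was at 53.8 and 73.6 CPM against 28.7 and 32.0 CPM in double-low cells (log2 difference 1.10 ± 0.145, edgeR adjusted p = 1.39e-05, DESeq2 adjusted p = 0.179). Tmem176b, an ion channel gene of innate lymphoid and dendritic cells, was at 49.7 and 39.2 CPM against 14.8 and 13.7 CPM (1.68 ± 0.185, edgeR adjusted p = 1.02e-06).

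Other residency genes were low. Itga1, the CD49a integrin chain that marks ILC1, was at 16.9 and 24.7 CPM in Xcl1-high cells, and Cxcr6 at 15.9 and 20.3 CPM. Both were higher than in double-low cells. Itgae, the CD103 chain, had at most 1 UMI in a library, and Zfp683, the residency factor Hobit, had 0. Rgs1 was called in neither comparison. Eomes, which ILC1 are known to lack, was at 230 and 291 CPM. Itga2, the CD49b chain of conventional NK cells, was lower in Xcl1-high than in double-low cells (72.2 and 82.8 CPM against 108 and 118, log2 difference −0.502 ± 0.105). In all, 7 of 11 conventional NK genes were lower than in Klrg1-only cells by edgeR (2.91% of all tested genes). Against double-low cells 6 of 11 were lower (1.50% of all). Gzma and Prf1 are among them. DESeq2 called Gzma, Prf1, Nkg7 and Klra9 in the first comparison and Gzma, Prf1 and Klra4 in the second. It called Itga2 in neither.

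Krt83, a keratin gene, is named after its values were seen, because it is under the level set for naming. It had 79 and 94 UMIs in Xcl1-high cells (40.4 and 45.5 CPM), 17 and 9 in double-low cells, and 1 and 0 in Klrg1-only cells. The level was 7.55 times (4.43 to 13.6) that of double-low cells in control and 13.3 times (6.71 to 30.0) in knockdown (edgeR adjusted p = 1.06e-09). Ahr, the aryl hydrocarbon receptor, was at 49.7 and 61.5 CPM against 26.5 and 31.6 CPM in double-low cells. Odc1, the entry enzyme of polyamine synthesis, was at 156 and 169 CPM against 88.8 and 102 CPM. Serpina3g, a serpin of activated lymphocytes, was at 262 and 290 CPM against 146 and 145 CPM. These 3 genes were called higher in both comparisons by edgeR, Ahr with a log2 difference of 0.976 ± 0.147 from double-low cells. DESeq2 called Odc1 and Serpina3g in both and Ahr in neither.

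**Figure D3:**
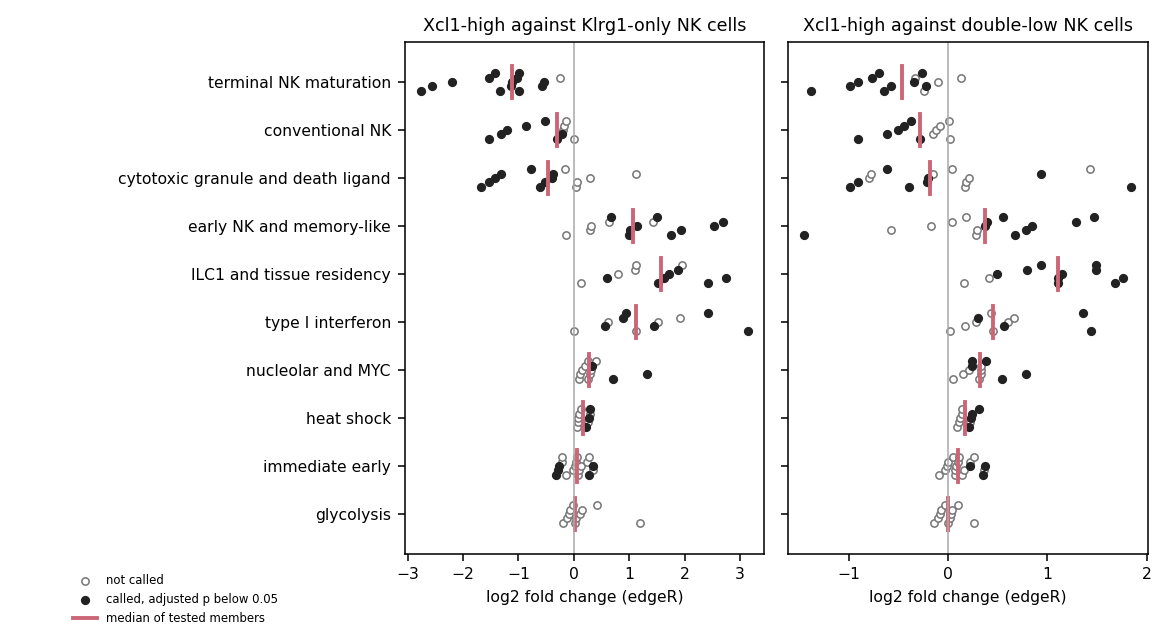
Log2 difference (x axis, edgeR) of the tested members of 10 gene lists (rows) in Xcl1-high cells against Klrg1-only cells (left) and double-low cells (right). Filled points were called at an adjusted p below 0.05, open points were not, and red bars are list medians; terminal maturation sits left of 0 (medians −1.12 and −0.46) and early NK genes mostly right of 0 (1.08 and 0.37), with glycolysis around 0 and no member called.

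The chemokine genes Ccl5, Ccl4 and Ccl3 were lower in Xcl1-high than in Klrg1-only cells. Over 11 tested secreted factors other than Xcl1, 3 were higher and 4 lower in that comparison, and 2 were higher and 2 lower against double-low cells. DESeq2 called Ltb higher and Ccl5 lower in both and Ccl4 lower in the first. Ccl5, a chemokine that attracts T cells and other leukocytes, was at 7774 and 7768 CPM in Xcl1-high cells, 13209 and 13293 CPM in double-low cells and 21099 and 22110 CPM in Klrg1-only cells. The log2 differences were −0.729 and −1.47 (edgeR adjusted p = 1.25e-10 and 4.49e-123). Ccl4 was at 1353 and 1145 CPM against 2817 and 2236 CPM in Klrg1-only cells, and Ccl3 at 579 and 392 CPM against 882 and 997 CPM. Both were lower in that comparison. Ifng, the interferon gamma gene, was at 344 and 290 CPM, beside 348 and 286 CPM in double-low cells and 348 and 332 CPM in Klrg1-only cells, and was called in neither. Flt3l, the growth factor of dendritic cells, was at 40.4 and 32.5 CPM and was not called either (log2 difference 0.20 ± 0.159 from double-low cells). Tnfsf14, which encodes LIGHT, was higher in both comparisons (16.4 and 24.2 CPM against 7.87 and 6.09 CPM in double-low cells).

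Among activating receptors, Cd160, which binds MHC class I and HVEM, was at 129 and 102 CPM in Xcl1-high cells, 62.1 and 43.4 CPM in double-low cells and 30.3 and 41.5 CPM in Klrg1-only cells. Its log2 difference from double-low cells was 1.17 ± 0.115 (edgeR adjusted p = 1.21e-07). Klrb1f and Cd226 were also higher than in double-low cells, and Fcgr3, the CD16 gene, was lower (64.5 and 67.3 CPM against 88.5 and 95.6 CPM). These 3 calls were lost in DESeq2, which called Cd160 alone of the 16 activating receptors in each comparison, and without the library block. The signalling adaptor Hcst and Klrk1 were called in neither comparison. Of inhibitory receptors, Klrc1, the NKG2A chain of immature NK cells, was higher than in double-low cells (209 and 177 CPM against 127 and 110 CPM, log2 difference 0.744). Klra9 (233 and 227 CPM against 312 and 332 CPM), Klra4, Klra8 and Klra3 were lower. Of these, DESeq2 called Klrc1 and Klra4. These Ly49 genes are near-identical copies, so their separate values are uncertain. The checkpoint genes Lag3, Pdcd1, Tigit and Havcr2 were each at under 11 CPM in both libraries.

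Of 17 tested transcription factors of the lineage, 1 was higher (Tcf7) and 5 lower (Zeb2, Tbx21, Prdm1, Irf8 and Klf2) against Klrg1-only cells, and the same directions held against double-low cells except that Tbx21 was not called. DESeq2 called Tcf7 higher and Zeb2 and Irf8 lower in both (Tcf7 adjusted p = 0.000289 and 0.0327). Runx3, Id2, Nfil3 and Gata3 were called in neither. Of cytokine receptors, Il7r and the common chain Il2rg were higher than in double-low cells and the interferon gamma receptor Ifngr1 lower, of which DESeq2 called Il7r. Il2rb, the interleukin-2 and interleukin-15 receptor chain, was at 913 and 948 CPM and not called.

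Of 8 tested TGF-beta response genes, Smad7, Pmepa1 and Tgif1 were higher than in Klrg1-only cells, and 0 were called against double-low cells by edgeR or DESeq2. Smad7, which inhibits TGF-beta signalling, was at 412 and 505 CPM in Xcl1-high, 399 and 489 CPM in double-low and 283 and 284 CPM in Klrg1-only cells. For these genes the Xcl1-high and double-low levels were near each other and above the Klrg1-only level. At an unadjusted p below 0.05 the comparison with double-low cells held 2 of the 8.

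Type I interferon response genes were higher in 6 of 11 tested members against Klrg1-only cells and in 4 of 11 against double-low cells, with a median of 0.45 in the latter, but DESeq2 called none. Isg15, a ubiquitin-like protein, was at 86.0 and 110 CPM against 52.0 and 85.7 CPM in double-low cells. Nucleolar and MYC-related genes were higher in 3 and 5 of 12 members, with Myc at 63.0 and 47.0 CPM against 36.9 and 28.6 CPM in double-low cells. DESeq2 called 0 in both comparisons, and 0 of 12 were called against double-low cells without the library block. Of 10 heat shock genes 3 and 4 were higher, but none in either comparison without the block. Glycolysis (11 tested in each), cholesterol synthesis (8 and 10) and residual cycle genes (12 in each) had 0 called by edgeR and by DESeq2 in both comparisons, with 4 and 2 members at an unadjusted p below 0.05 over the 3 lists.

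Dendritic cell genes were lower than in double-low cells by edgeR. Cd74, the invariant chain of MHC class II, was at 281 and 155 CPM in Xcl1-high and at 405 and 448 CPM in double-low cells, and H2-Aa at 95.2 and 52.8 CPM against 139 and 186 CPM. All 5 tested genes of the dendritic list were called lower by edgeR. DESeq2 called none of Cd74, H2-Aa, H2-Ab1 and H2-Eb1. The whole list summed to 309 and 146 CPM in Xcl1-high, 423 and 540 CPM in double-low and 487 and 117 CPM in Klrg1-only cells. Its part in the other differences was not tested.

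Among cells without Klrg1, the same genes were ordered by the number of Xcl1 UMIs in the cell. From 0 through 1, 2, 3 to 4 and at least 5 Xcl1 UMIs, control Gzma was at 12420, 8730, 7453, 6070 and 4706 CPM. In knockdown it was at 12127, 8955, 5609, 6595 and 5646 CPM. Control Ltb was at 182, 255, 297, 431 and 575 CPM over the same steps, and knockdown Ltb at 137, 314, 432, 404 and 507 CPM. On all UMIs, cells just outside the threshold thus lay between cells with 0 Xcl1 UMIs and the members for both genes in both libraries, and the steps above the threshold were ordered throughout only in control. Tcf7 in control was at 76.9, 95.0, 136, 123 and 164 CPM. Cells with more UMIs reach a given Xcl1 count more easily, and the median depth of the steps was not equal. The steps were also set by the Xcl1 count on 1500 thinned UMIs per cell, with the gates and levels still on all UMIs. Control Gzma was then at 11184, 7314, 6500, 5544 and 5282 CPM. Control Tcf7 was then at 80.7, 141, 116, 162 and 129 CPM, and so was not ordered throughout. Knockdown Gzma was then at 10784, 6207, 6893, 6170 and 5335 CPM, so that cells with 1 Xcl1 UMI were below those with 2. On these thinned steps Ifng was at 327, 311, 320, 338 and 598 CPM in control. In knockdown it was at 285, 250, 294, 275 and 424 CPM, so in both libraries it was highest with at least 5 Xcl1 UMIs. Ccl4 was also highest at that step, at 2183 CPM in control and 1599 CPM in knockdown.

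**Figure D4:**
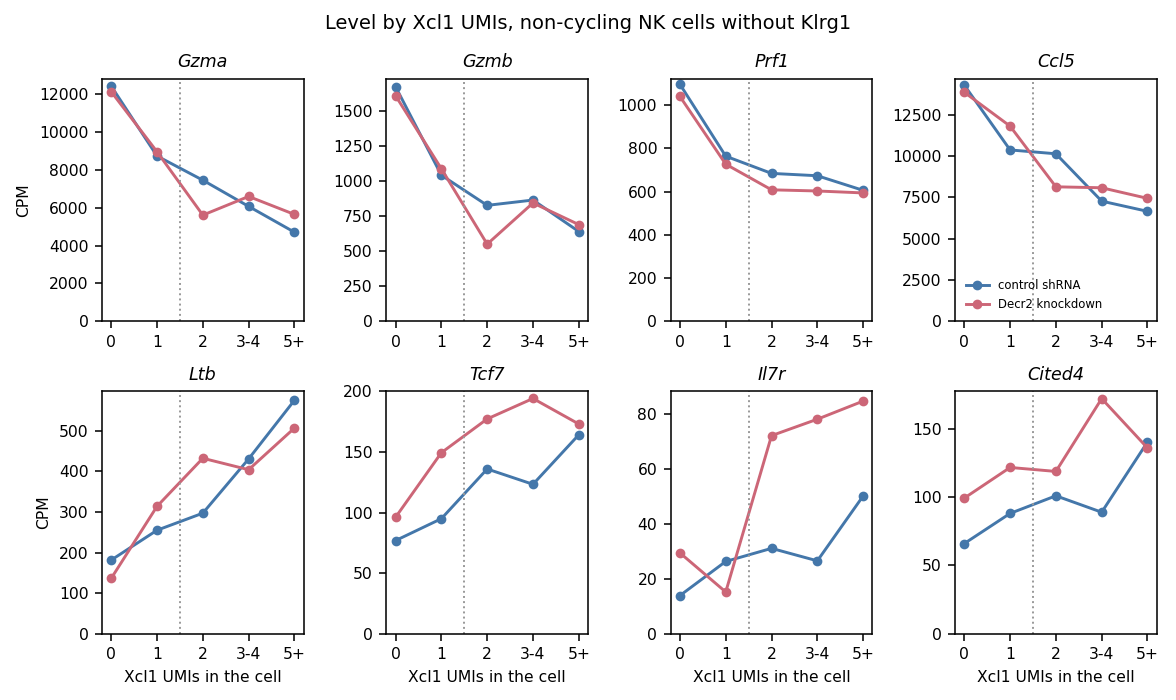
Level in CPM (y axes, from 0) of 8 genes in non-cycling NK cells without Klrg1, by the number of Xcl1 UMIs in the cell (x axis), in the control and knockdown libraries; the dotted line is the threshold of 2 UMIs. Control Gzma falls from 12420 to 4706 CPM and control Ltb goes from 182 to 575 CPM between the lowest and the highest step.

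To set sequence beside these levels, the 250 bases before the RefSeq start of Xcl1, which defines the cells, of Gpr183, which led the genes that were higher, and of Gzma and Gzmb, which led the granule genes that were lower, are printed 5′ to 3′ on the gene's strand (build GRCm38.p6). Capitals mark matches, on either strand, to 5 short motifs: T-box GGTGTGA, RUNX TGTGGT, ETS GGAAGT, TCF/LEF CTTTGA and AP-1 TGANTCA. Their windows are chr1:164935523-164935772, chr14:121965194-121965443, chr13:113100982-113101231 and chr14:56262335-56262584, in that order, all on the minus strand.
Xcl1: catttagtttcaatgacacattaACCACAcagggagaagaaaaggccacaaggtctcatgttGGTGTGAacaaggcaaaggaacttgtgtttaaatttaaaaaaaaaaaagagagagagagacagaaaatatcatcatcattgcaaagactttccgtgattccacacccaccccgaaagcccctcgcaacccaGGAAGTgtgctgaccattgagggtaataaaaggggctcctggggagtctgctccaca
Gpr183: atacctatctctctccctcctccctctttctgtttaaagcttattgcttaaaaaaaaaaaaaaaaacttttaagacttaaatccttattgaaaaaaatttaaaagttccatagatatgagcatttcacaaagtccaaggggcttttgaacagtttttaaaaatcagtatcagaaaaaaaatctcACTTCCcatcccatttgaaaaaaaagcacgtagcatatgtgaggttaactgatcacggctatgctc
Gzma: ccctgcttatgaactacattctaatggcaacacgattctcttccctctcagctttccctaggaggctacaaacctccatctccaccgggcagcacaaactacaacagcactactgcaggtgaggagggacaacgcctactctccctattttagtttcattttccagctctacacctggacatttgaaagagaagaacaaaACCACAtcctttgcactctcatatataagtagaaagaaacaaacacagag
Gzmb: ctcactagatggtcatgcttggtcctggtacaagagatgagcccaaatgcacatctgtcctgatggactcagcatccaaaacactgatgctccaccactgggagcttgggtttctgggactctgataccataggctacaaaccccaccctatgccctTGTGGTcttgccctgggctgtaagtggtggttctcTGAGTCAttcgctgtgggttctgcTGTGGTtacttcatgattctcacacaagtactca
The Xcl1 window held a RUNX match on the strand opposite to the printed one, a T-box match and, 57 to 52 bases before the start, an ETS match. Gpr183 held an ETS match on the opposite strand. Gzma held a RUNX match on the opposite strand, and Gzmb held 2 RUNX matches and the only AP-1 match of the 4. No TCF/LEF match was found in these windows. Over all 32851 RefSeq windows of this length, 3.33% held the T-box, 14.0% the RUNX, 19.7% the ETS, 13.8% the TCF/LEF and 6.75% the AP-1 letters. A match is a description of the letters only. The gene bodies lie at chr1:164931644-164935527 (Xcl1, ENSMUSG00000026573), chr14:121952551-121965195 (Gpr183, ENSMUSG00000051212), chr13:113093825-113100981 (Gzma) and chr14:56258838-56262260 (Gzmb) in GENCODE M21.

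The comparison of the knockdown library with the control library asks whether the same cells differed between tumours with and without the Decr2 shRNA. Xcl1-high cells of the knockdown library had more Il7r, Tsc22d3 and Dusp2 and less Ccl3, Gzmc and MHC class II transcript on the CPM scale. Of these, Gzmc and the 4 class II genes turned to higher in knockdown when every cell was thinned to 1500 UMIs. There the whole rule was read on the thinned counts. With only the Xcl1 and Klrg1 gate read on 1500 thinned UMIs, these genes stayed lower in knockdown. Gzma, Ccl5 and Ltb were at nearly equal levels on all UMIs. With 1 library per group no p-value is given, and a difference between tumours, mice or libraries cannot be told apart from the knockdown. Of 7941 genes that had 30 or more UMIs when the libraries were added, 28.5% differed by more than 1.25-fold, 15.2% higher in knockdown and 13.3% lower. That fold was set with the data at hand, and at 1.5-fold the share was 9.13%. Decr2 itself, which was targeted in the tumour cells and not in these, had 10 UMIs in control and 9 in knockdown Xcl1-high cells.

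Il7r was at 2.14 times (1.61 to 2.86) its control level in knockdown Xcl1-high cells, and at 1.47 times in double-low cells. Tsc22d3, which encodes the glucocorticoid-induced leucine zipper, was at 113 CPM in control and 202 CPM in knockdown, or 1.80 times as high (1.52 to 2.13). Its ratio was 1.70 in double-low and 2.21 in Klrg1-only cells, so it was higher in all 3 gates. Dusp2, a phosphatase of MAP kinases, was at 1213 CPM in control and 1630.5 CPM in knockdown, 1.34 times as high (1.27 to 1.42), beside 1.27 and 1.45 in the other gates.

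Pde3b, a phosphodiesterase, was at 1.68 times its control level (67.6 and 114 CPM), and the TGF-beta response genes Pmepa1 and Skil at 1.70 and 1.60 times. Il10ra, the interleukin-10 receptor chain, was at 1.64 times (46.6 and 76.5 CPM). The slingshot phosphatase gene Ssh2 was at 1.51 times and Olfm1 at 1.74 times. Of the markers given with the cells, Arl4d was at 1.69 times (1.34 to 2.14), Eomes at 1.26 times (1.11 to 1.43) and Xcl1 at 0.797 times (0.759 to 0.836). Xcl1 is read by the rule itself, so its ratio is no result on these cells. Members had a median of 2629 UMIs in control and 3850.5 in knockdown, so the minimum of 2 Xcl1 UMIs admits lower CPM in knockdown.

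On the lower side, H2-Eb1 was at 96.8 CPM in control and 40.2 CPM in knockdown, a ratio of 0.415 (0.317 to 0.541). H2-Ab1 was at 0.462 times, Cd74 at 0.551 times (0.478 to 0.633) and H2-Aa at 0.554 times. A cell held 18.8% of the H2-Eb1 UMIs in Xcl1-high cells, and H2 genes are partly of similar sequence. Beside this, all 3 tested genes of the dendritic list and all 5 of the monocyte and macrophage list were lower by more than 1.25-fold in knockdown, and their part in the result was not tested. These 4 ratios went above 1 when every cell was thinned to 1500 UMIs before gating. They stayed below 1 with only the Xcl1 and Klrg1 gate thinned.

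Ccl3 was at 579 CPM in control and 392 CPM in knockdown Xcl1-high cells, a ratio of 0.678 (0.619 to 0.743), against 0.842 in double-low cells and 1.13 in Klrg1-only cells. Gzmc was at 0.483 times (0.413 to 0.564), and its log2 ratio was 0.14 with every cell thinned to 1500 UMIs. With only the Xcl1 and Klrg1 gate thinned, its log2 ratio stayed below 0. S100a4, a calcium-binding protein of motile cells, was at 282 and 175 CPM, Plek, a protein kinase C substrate, at 178 and 112 CPM, and Hspa1b at 506 and 350 CPM. Hspa1b and Hspa1a are near-identical copies and are uncertain apart; both were lower, at 0.692 and 0.722 times.

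By list, early NK genes were higher by more than 1.25-fold in 8 of 15 members and lower in 1 (median log2 ratio 0.30, with 10 CPM added to each level), and 17 lineage transcription factors other than Eomes higher in 6 and lower in 0. At 1.5-fold, 4 early NK genes and 1 lineage factor were higher. Nucleolar and MYC-related genes were lower in 4 of 12 and higher in none (median −0.21), and at 1.5-fold 1 was lower. With every cell thinned to 1500 UMIs the median was 0.015, and with only the Xcl1 and Klrg1 gate thinned it stayed below 0. Terminal maturation genes had 1 higher and 1 lower, and conventional NK genes other than Eomes none in either direction. The list shares are to be read beside the 28.5% of all genes. Gzma stood at 0.998 times (0.973 to 1.02) its control level, Ccl5 at 0.999 times (0.977 to 1.02), Ltb at 1.02 times (0.930 to 1.12) and Prf1 at 0.924 times.

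**Figure D5:**
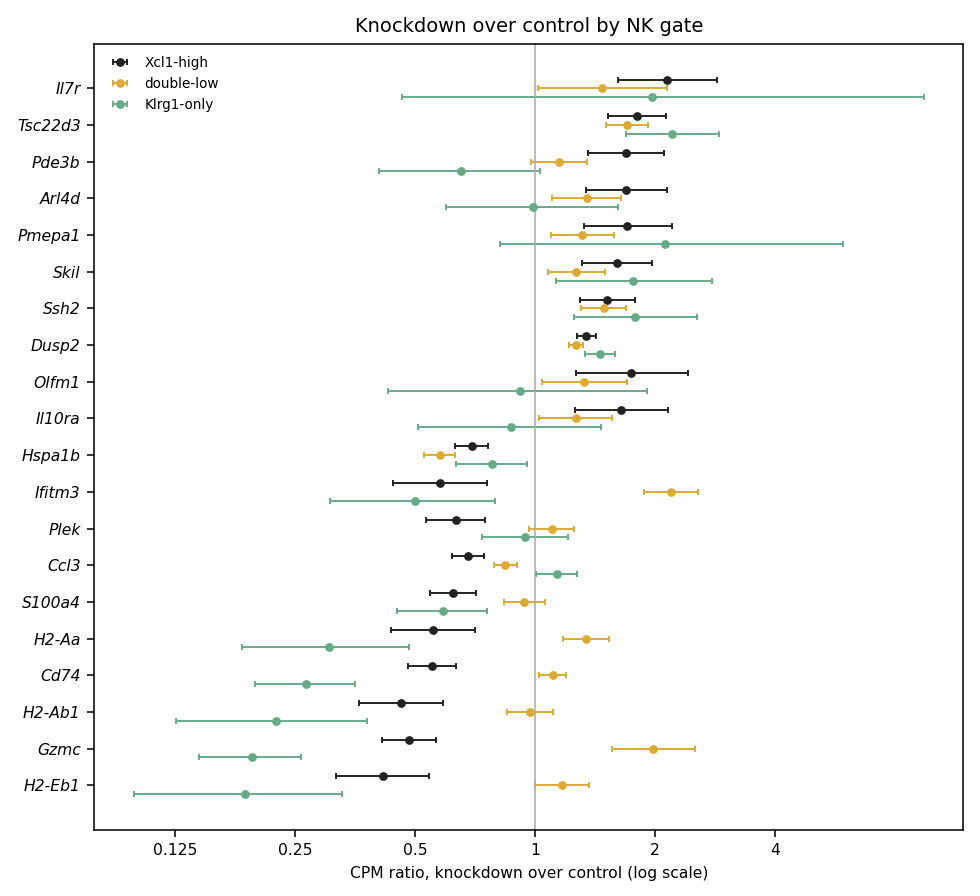
Ratio of CPM, knockdown over control (x axis, log scale), for 20 genes (rows) in Xcl1-high, double-low and Klrg1-only NK cells, with exact 95% intervals that cover counting error only. Tsc22d3 lies above 1 in all 3 gates (1.80, 1.70 and 2.21), while Gzmc lies below 1 in Xcl1-high cells (0.483) and above 1 in double-low cells (1.97), on all UMIs. With every cell thinned to 1500 UMIs before gating, the Gzmc log2 ratio in Xcl1-high cells was 0.14. It stayed below 0 with only the Xcl1 and Klrg1 gate thinned.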

How the data were processed

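Single-cell RNA was measured in 1 control and 1 knockdown library. The authors deposited whole UMI counts per gene and barcode, made with Cell Ranger 6.1.2 on mm10, and name Seurat 4.3, per the submitters' processing notes; the counts are not normalised. Settings for calling cells are not given in the sources used here, nor is the gene annotation. Every deposited barcode had at least 500 UMIs. The members, gene lists and tests were chosen with earlier results of these data known, so agreement with those is no independent support.

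UMIs were summed per library and gate. Gates were compared with edgeR 4.0.16 (quasi-likelihood test, TMM, filterByExpr, library as block, Benjamini-Hochberg adjustment over all genes tested) in R 4.3.3, and with DESeq2 1.42.0 as an alternative. Its independent filtering left most genes without an adjusted p, so DESeq2 without it was added after seeing the data. Gate genes and the given markers were left untested. For knockdown over control, ratios have exact intervals from the conditional binomial, levels exact Poisson intervals, shares Clopper-Pearson intervals and their difference a Newcombe interval. PCR copies are merged by UMI, and all intervals cover counting error only. The number of UMIs per cell limits what a 0 can show. Doublets were not removed in the rule; the highest Scrublet scores (scanpy 1.11.5, 0.8% of barcodes per 1000 barcodes) would take out 31 and 10 members, which was an alternative, as were other filters, scalings, thinning, Xcl1 minima and pseudocounts of 1 and 50 CPM. Settings that thin only the Xcl1 and Klrg1 gate, the fold that counts as past in the knockdown comparison and its stricter value of 1.5 were chosen after seeing the data. The fit was tested on simulated data.

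Genes named are the 10 highest and 10 lowest per comparison by the smaller difference of the 2 libraries, or by the interval bound nearest 1, at 50 CPM or more and with at most 25% of UMIs in 1 cell in the knockdown comparison, besides members of the 20 fixed gene lists. A few list members are counted but not reported here by name. That ranking skipped ribosomal, mitochondrial and haemoglobin genes, receptor gene segments and markers of melanoma. Of 32285 genes, 32158 (99.6%) were located in GENCODE M21 on GRCm38 by Ensembl ID. Promoter windows come from RefSeq on GRCm38.p6, where 36 of 46 named genes had a window.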

Additional observations from a re-analysis of the deposited data

Results flagged for a closer look

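For 6 genes the ratio of knockdown to control went one way in Xcl1-high cells and the other way in another NK gate, with both intervals on opposite sides of 1. With 1 library per group, none of these differences was tested. Against double-low cells, Gzmc was at 0.483 (0.413 to 0.564) in Xcl1-high and 1.97 (1.55 to 2.51) in double-low cells. Ifitm3, an interferon-induced membrane protein, was at 0.578 (0.440 to 0.755) and 2.19 (1.88 to 2.56), with 14.6% of its UMIs in Xcl1-high cells in 1 cell. H2-Aa, an MHC class II chain, was at 0.554 (0.434 to 0.706) and 1.34 (1.18 to 1.53). Nr4a3, an immediate early nuclear receptor, was at 0.667 (0.505 to 0.880) and 1.82 (1.41 to 2.36). With every cell thinned to 1500 UMIs, the log2 ratio in Xcl1-high cells was above 0 for Gzmc (0.14), Ifitm3 (0.077) and H2-Aa (0.57), the side of the double-low values given here. With only the Xcl1 and Klrg1 gate thinned, it stayed below 0 for each of these genes. Against Klrg1-only cells, Gata3, a factor of innate lymphoid and T cells, was at 1.40 (1.11 to 1.77) and 0.522 (0.294 to 0.893). Spp1, osteopontin, was at 0.681 (0.501 to 0.921) and 2.87 (1.66 to 5.14), with 10.9% of its UMIs in 1 cell. Ifitm3, H2-Aa and Spp1 are abundant in myeloid cells. Summed monocyte and macrophage markers stood at 130 CPM in control and 63.9 CPM in knockdown Xcl1-high cells. They stood at 111 and 126 CPM in double-low cells and at 112 and 73.1 CPM in Klrg1-only cells. The part of myeloid cells in these ratios was not tested.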

How the results depend on the processing

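The number of genes called against Klrg1-only cells (509, with 273 higher and 236 lower) was 111 in DESeq2 (64 and 47; 70, 37 and 33 without independent filtering), 225 without the library block (120 and 105), 161 with every cell thinned to 1500 UMIs, when 4773 genes were tested (86 and 75), and 245 with only the Xcl1 and Klrg1 gate thinned (134 and 111). Against double-low cells (350, with 212 and 138) it was 103 in DESeq2 (87 and 16; 54, 44 and 10 without the filtering), 83 without the block (50 and 33) and 118 with every cell thinned (86 and 32), and library totals gave 519 (288 lower). The share difference of 3.54 points was −1.63, 0.0272 and −1.95 points with cells thinned to 1000, 1500 and 2500 UMIs, and −1.97 and −1.77 points with only the gate thinned to 1500 and 2500. With every cell thinned, the log2 ratio of knockdown to control turned above 0 for Cd74 (0.44), Gzmc (0.14), H2-Aa (0.57), H2-Ab1 (0.84), H2-Eb1 (1.07) and Ifitm3 (0.077), and the nucleolar list's median (0.015). The type I interferon median turned to −0.028 there and to −0.0246 with at least 3 Xcl1 UMIs. In the setting with every cell thinned, the whole rule was read on the thinned counts. With only the Xcl1 and Klrg1 gate thinned, none of these genes or lists changed sign. The causes were not tested. The share of genes past 1.25-fold ran from 26.0% to 35.5%, and 9.13% were past 1.5-fold. Over the named genes of the gate comparisons, 507 repeats kept side and call and 23 lost the call, and another 30 in DESeq2 had no adjusted p. No paired analysis was possible because each treatment group has 1 library, while gates were compared within library, and leaving out a library leaves no residual degrees of freedom. Depth limits genes with few UMIs in the 250 and 143 Klrg1-only cells most.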

Other observations

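Receptors for migration were divided. Ccr2, a receptor for monocyte chemoattractant chemokines, was at 419 and 415 CPM in control and knockdown Xcl1-high cells and at 313 and 278 CPM in Klrg1-only cells (log2 difference 0.491 ± 0.102, edgeR adjusted p = 8.59e-05). Cxcr4, the CXCL12 receptor, was at 152 and 215 CPM against 110 and 115 CPM there. Neither was called against double-low cells. Itga4, an integrin chain for binding to vessel walls, was at 246 and 311 CPM, below the 327 and 379 CPM of double-low and the 466 and 474 CPM of Klrg1-only cells, and was called lower in both comparisons by edgeR. Over the trafficking list, 4 of 15 genes were higher and 6 lower than in Klrg1-only cells, and 3 of 16 higher and 6 lower than in double-low cells, by edgeR. DESeq2 called 5 and 0, with Itga4 against Klrg1-only cells among them and Ccr2 and Cxcr4 not.

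Immediate early genes, which respond within minutes to receptor signals and to tissue digestion, were mixed. Of 18 tested, 2 were higher and 3 lower than in Klrg1-only cells, and 3 were higher and 0 lower than in double-low cells. Junb, an AP-1 subunit, was at 2149 and 2196 CPM in Xcl1-high and at 1689 and 1806 CPM in double-low cells (log2 difference 0.355 ± 0.0495, edgeR adjusted p = 3.3e-05). Nfkbia, the inhibitor of NF-kappaB, was at 764 and 805 CPM against 563 and 691 CPM. Fos, Egr1 and Nr4a1 were called in neither comparison. Of glucocorticoid response genes, 0 of 6 were higher and 2 lower than in Klrg1-only cells, and 1 of 7 higher and 1 lower than in double-low cells, while DESeq2 called 0. Tsc22d3 was at 113 and 202 CPM in Xcl1-high against 146 and 248 CPM in double-low cells and was called lower by edgeR. That call was lost without the library block, with DESeq2 size factors, with every cell thinned, and without cells with Lyz2, Cd3g or Trac UMIs. Ddit4, an inhibitor of mTOR, was higher, at 63.5 and 67.3 CPM against 45.7 and 44.6 CPM.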
